A study of Mus musculus with 6 samples.

Results

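The genes described here carry the signal from a G protein-coupled receptor to its kinases. They were the protein-coding genes of the GENCODE M21 annotation whose symbols mark them as G protein alpha, beta or gamma subunits, regulators of G protein signalling (RGS), adenylyl cyclases, phosphodiesterases (PDE), subunits of protein kinase A (PKA) and of the AMP-activated kinase (AMPK), or protein kinases C (PKC). Gnal, Gnas, Rgs9, Adcy5, Pde10a and Pde1b were left out by the rule. The rule took 105 genes, of which 99 were listed in at least 1 library, out of 16154 genes listed in the series. It takes symbols only. Among others, it therefore also holds Gnb1l (a WD repeat protein), Pde4dip (a scaffold protein that binds a phosphodiesterase) and Prkcsh (a subunit of glucosidase II). These are not signalling enzymes or G protein subunits. The families below are likewise counted by symbol, with Rgs7bp and Rgs9bp under RGS. The rule itself uses no measured value, but the members were chosen with earlier results of these data known.

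Total RNA of the nucleus accumbens (NAc), the part of the ventral striatum that serves reward, was sequenced in adult male C57BL/6N mice. The mice had gone through conditioned place preference (CPP) training, in which injections are paired with the compartments of a box. The saline group (3 libraries) was trained with saline injections and the morphine group (3 libraries) with morphine injections in alternation with saline, and the tissue was taken after the preference test. The mice carried no named allele. Sources differ on whether a library is the tissue of 1 mouse or of several, so the spread between libraries may not be that between single mice. The comparison asks which transcripts differ in the NAc after morphine training.

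For each library, the deposited data used here list the alternative splicing and transcript-end events of the assembled transcripts. An event is a skipped exon, a retained intron, an exon with more than 1 possible end, or a transcript start or end, and it is either listed in a library or not. No expression level goes with it. Relative depth, with saline library 1 set to 1, was 1.07 and 1.37 in saline libraries 2 and 3, and 1.2, 1.59 and 1.29 in morphine libraries 1, 2 and 3. Between 54660 and 62209 events of all genes were listed per library. Markers of striatal projection neurons (8 of 8 genes), cortical projection neurons (4 of 4), oligodendrocytes (4 of 4), astrocytes (3 of 3), microglia (3 of 3) and the ventricle lining (3 of 3) were listed in all 6 libraries. Listing therefore did not separate the tissue from its neighbours, and the part of other cells in the results was not tested.

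An activated receptor makes a G protein alpha subunit release its beta-gamma pair. RGS proteins end the signal by speeding up GTP hydrolysis on the alpha subunit. Adenylyl cyclases make cAMP, phosphodiesterases degrade it, and PKA responds to it. The mu opioid receptor couples to Gi, Go and Gz proteins, which inhibit adenylyl cyclase. Many genes of these families use several promoters or exchange exons, so that 1 gene gives proteins with different regulatory ends.

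The 99 listed genes carried 685 events. Of these, 202 (29.5%) were listed in all 6 libraries and 309 (45.1%) in a single library, while of the 132823 events of all genes 20.5% were listed in all 6 and 50.5% in 1. Of the members, 85 (85.9%) were listed in every library, against 81.6% of all listed genes. The median was 5 events per gene, both over the members and over all genes. Transcript starts and ends made up 68.0% of the member events, skipped exons 10.8%, retained introns 12.8% and alternative exon ends 8.32%. Over all genes these shares were 57.2%, 9.69%, 19.8% and 13.3%, so the signalling genes held a smaller share of retained introns.

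The event load differed between the families. The 22 RGS genes carried 181 events and the 24 phosphodiesterase genes 187. The 9 adenylyl cyclases carried 104 events, of which 10 were listed in all 6 libraries and 62 in 1. The 12 G gamma genes carried 45 events, of which 28 were listed in all 6 libraries and 7 in 1. G alpha genes (14) had 50 events, G beta genes (6) had 27, PKA and AMPK alpha genes (8) had 44 and PKC genes (10) had 47. The G gamma subunits, short proteins of few exons, thus had the most repeatable lists, and the cyclases the least.

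Listed position and annotation went together. Of the 111 member starts listed in all 6 libraries, 109 (98.2%) lay at an annotated first exon, and of the 105 starts listed in 1 library, 25 (23.8%) did. The 2 stable starts without annotation belonged to Adcy6 and Pde1c. All 68 transcript ends listed in 6 libraries were annotated, whereas 9 of 66 (13.6%) ends listed in 1 library were. Over all genes the shares were 96.9% and 19.3% for starts and 98.3% and 20.9% for ends. Single retained introns differed, since 35 of the 39 listed in 1 library (89.7%) were still annotated introns.

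**Figure D1:**
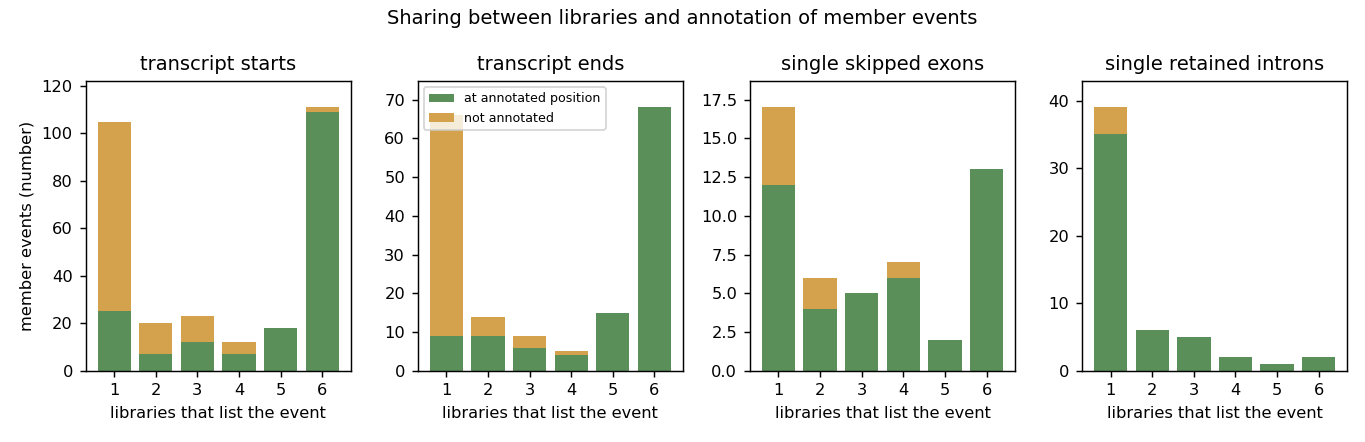
Number of member events (y axis) by the number of libraries that list them (x axis), in 4 panels for transcript starts, transcript ends, single skipped exons and single retained introns, with events at annotated positions in green and others in yellow. Starts and ends fall into a repeated, annotated group (109 of 111 and 68 of 68 in 6 libraries) and a group seen in 1 library that is mostly not annotated, while retained introns were mostly seen in 1 library (39 of 55).

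Some members had several stable starts. A start listed in all 6 libraries was found in 69 members, and 25 members had more than 1. In 16 of these 25, the transcripts annotated at the stable starts had more than 1 first coding position. These positions need not differ between the starts, since the stable Gng7 starts carry the same ones. A start is given below by the end of its first exon, since the outer end varies with coverage. Starts told apart in this way need not be separate promoters, as with the Gng12 starts at 66896515 and 66896527. The share of all genes with several stable starts is not given here.

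Phosphodiesterase 4 enzymes are the cAMP-specific targets of rolipram, and 3 of their genes had several stable starts. Pde4b (chromosome 4, plus strand) had starts annotated for proteins of up to 736, 721, 659 and 503 residues in all 6 libraries. Their first exons ended at 102087788, 102255456, 102421820 and 102590201. The start for 564 residues (102570878) was listed in 5 libraries and not in morphine library 1. Pde4a (chromosome 9) had its starts for 844 and 610 residues in all 6 libraries. Long PDE4 forms carry the upstream conserved regions through which PKA regulates the enzyme, and the shortest forms lack part of them. The NAc lists held starts annotated for both kinds, but do not link a start to a whole coding sequence.

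Pde4d (chromosome 13, plus strand) had starts for 753, 703, 584 and 517 residues in all 6 libraries. The start for 678 residues, with a first exon ending at 109686220 was listed in 3 of 3 saline libraries and 0 of 3 morphine libraries. The starts for 803 and 698 residues were each listed in 1 library. The annotated end of all these forms (109950931) was listed only in saline libraries 1 and 3 and morphine library 1. A listed start thus does not show the whole coding form. The gene had 6, 7 and 7 events in the saline libraries and 5, 6 and 6 in the morphine libraries, so its event numbers overlapped. Pde1c, a calmodulin-dependent enzyme that degrades cAMP and cGMP, had 4 stable starts, one of them for 766 residues. Pde8b, a high-affinity cAMP phosphodiesterase, had 2.

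Among the kinases, Prkcz (chromosome 4, minus strand) encodes the atypical PKC zeta, and an internal promoter gives PKM zeta, a form of the kinase domain without the regulatory part. Prkcz had 5 events in each of the 6 libraries. The start of the full-length form (first exon ending at 155361152, up to 592 residues) and the internal start (155345450, 409 residues) were both listed in all 6 libraries, and neither differed between the groups. The 1 transcript end of the gene that was listed (155356516, in all 6 libraries) is annotated for Prkcz-203, which shares the full-length start and codes for 96 residues. No end of the 592-residue or the 409-residue form was listed. Further stable starts lay at 155345151 and 155344683, whose annotated coding sequences were short (46 and 121 residues). The promoter windows of the full-length and the internal start are shown because they differ in a letter motif (RefSeq, GRCm38.p6, minus strand, 250 bases before to 50 after the start). The cAMP response element TGACGTCA and its core TGACG were searched on both strands, the core within the full motif counted too, and matches are in capitals.
Prkcz, full-length start, chr4:155361379-155361678: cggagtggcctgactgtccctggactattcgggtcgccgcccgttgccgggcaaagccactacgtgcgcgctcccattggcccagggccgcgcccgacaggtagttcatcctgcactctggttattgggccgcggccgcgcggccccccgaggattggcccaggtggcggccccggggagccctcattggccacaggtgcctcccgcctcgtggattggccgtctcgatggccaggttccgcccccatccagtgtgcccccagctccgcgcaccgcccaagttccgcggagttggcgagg
Prkcz, internal start, chr4:155345740-155346039: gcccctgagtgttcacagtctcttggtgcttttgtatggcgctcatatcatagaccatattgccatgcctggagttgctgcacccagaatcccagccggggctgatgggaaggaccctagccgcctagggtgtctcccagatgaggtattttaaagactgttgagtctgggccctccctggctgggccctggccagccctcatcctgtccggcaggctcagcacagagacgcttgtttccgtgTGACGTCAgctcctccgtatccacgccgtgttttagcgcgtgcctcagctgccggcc
The internal window held TGACGTCA and the full-length window held neither motif. The GC content was 71.0% in the full-length window and 59.3% in the internal window. Of 127 promoter windows of 79 members, 3 held TGACGTCA (2.36%, against 1.79% of 32851 windows of all genes), the others being 2 overlapping windows of Prkar1a. The core was in 25.2% of member windows and 20.8% of all. A match of letters is not evidence of binding.

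Prkacb, which encodes the PKA catalytic subunit beta (chromosome 3, minus strand), had starts for 351, 339 and 338 residues in all 6 libraries, with first exons ending at 146812638, 146770516 and 146769934. Its start for 398 residues (146781147) was listed in saline libraries 2 and 3 and morphine library 2. Prkar1a, a regulatory subunit of PKA, had 3 stable starts that share 1 first coding position. Prkaa2, an AMPK alpha subunit, had 2 events in all 6 libraries, as did Prkaca, the other PKA catalytic subunit. Prkce, a diacylglycerol-responsive PKC, had 3.

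Among the G protein subunits, lists were short and repeated. Gna11, an alpha subunit of the Gq class, had 2 events in every library, Gnaz 3 and Gnb1 4. Gng12 had 6 events in every library, 3 of them starts that share 1 first coding position, and Gng13, a gamma subunit of taste and olfactory cells, had 3. Gnb2, a beta subunit, had 6 events in saline library 1 and 4 in each of the others, with 3 stable starts. Gnb1l had 3, 3 and 6 events in saline and 2, 5 and 3 in morphine. Of the cyclases, Adcy3, known from olfactory cilia, had 3 events in all 6 libraries, and Adcy9 had 2, its annotated start and end. Skipping of a coding Adcy9 exon of 191 bases, which is not a multiple of 3, was listed in saline libraries 2 and 3 and morphine libraries 1 and 3. None of these genes had event numbers that separated the groups.

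**Figure D2:**
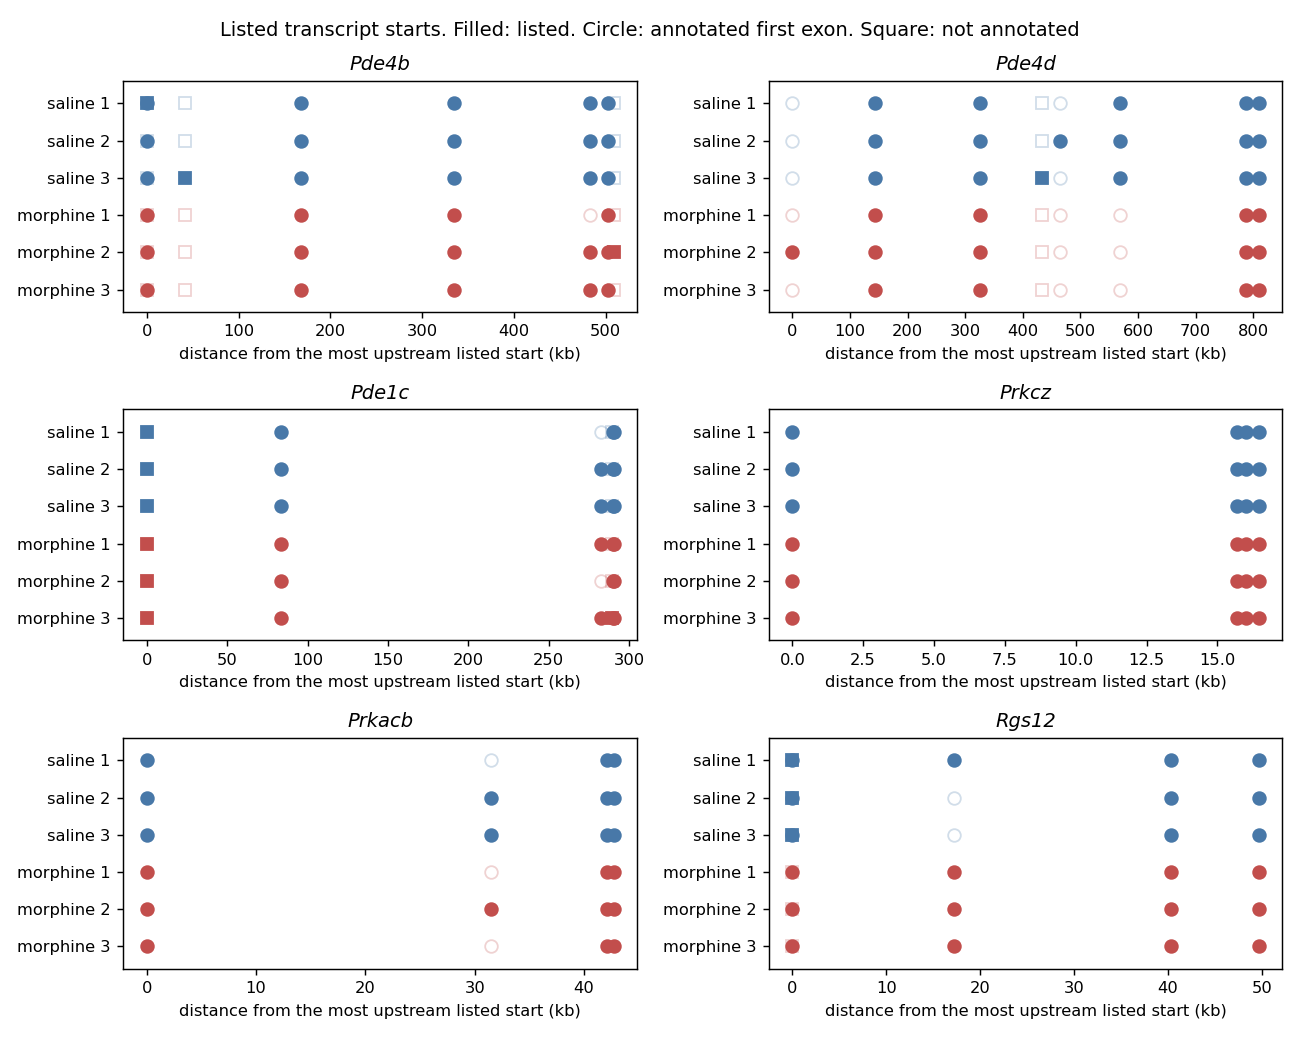
Transcript starts of 6 genes on the gene's own strand, by distance in kb from the most upstream listed start (x axis) and library (y axis, saline blue, morphine red). Filled symbols are listed and open symbols are not, circles are annotated first exons and squares are not annotated. Prkcz is filled throughout, whereas the Pde4d start for 678 residues is filled in the saline rows only.

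The RGS genes combined stable starts with exchanged exons. Rgs8, a regulator of Gi and Gq signals, had 7 events in all 6 libraries, 5 of them starts, and 7 or 8 events in every library. Rgs12, a large RGS protein with a PDZ domain, had stable starts at 34949524 (1381 residues), 34989868 and 34999229 on chromosome 5, and a start at 34966755 (1451 residues) in saline library 1 and the 3 morphine libraries. Rgs17 and Rgs19, which act on Gi family subunits including Gz, each had 4 events in all 6 libraries.

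Single exons at an annotated position were listed as skipped in all 6 libraries 13 times, in 10 genes. Of these exons, 8 held coding bases, 4 were wholly coding, and 5 were wholly non-coding. The non-coding ones changed the leader of Gnaz (66 bases), Gnb1 (49 bases), Gng12 (53 and 58 bases, 2 forms of an exon) and Rgs17 (107 bases). Gnaz encodes a G alpha subunit that pertussis toxin does not block. Gnb1 is a widely used beta subunit and Gng12 a gamma subunit. The coding parts of 6 exons are shown for their length and frame, with capitals for the coding bases of the exon and small letters for the coding bases beside it (transcripts of GENCODE M21, GRCm38, in the direction of the gene).
Pde4dip (Pde4dip-202, chr3:97709482-97709634, minus strand): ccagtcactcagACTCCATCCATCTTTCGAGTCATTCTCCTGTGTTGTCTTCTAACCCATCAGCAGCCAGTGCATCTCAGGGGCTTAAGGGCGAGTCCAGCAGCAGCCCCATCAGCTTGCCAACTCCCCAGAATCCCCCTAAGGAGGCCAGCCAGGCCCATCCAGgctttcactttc
Pde8b (Pde8b-202, chr13:95086728-95086868, minus strand): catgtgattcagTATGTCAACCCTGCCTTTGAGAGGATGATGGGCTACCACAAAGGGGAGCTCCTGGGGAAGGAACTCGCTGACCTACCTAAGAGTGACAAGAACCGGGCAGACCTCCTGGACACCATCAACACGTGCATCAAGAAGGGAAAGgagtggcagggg
Prkaa1 (Prkaa1-201, chr15:5164712-5164805, plus strand): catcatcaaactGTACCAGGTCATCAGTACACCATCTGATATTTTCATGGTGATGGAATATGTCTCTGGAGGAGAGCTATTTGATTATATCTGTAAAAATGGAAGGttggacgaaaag
Rgs19 (Rgs19-206, chr2:181691490-181691595, minus strand): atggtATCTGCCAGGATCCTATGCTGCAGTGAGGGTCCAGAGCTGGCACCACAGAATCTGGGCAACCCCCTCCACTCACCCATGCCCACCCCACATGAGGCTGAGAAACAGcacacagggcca
Rgs7 (Rgs7-206, chr1:175066617-175066694, minus strand): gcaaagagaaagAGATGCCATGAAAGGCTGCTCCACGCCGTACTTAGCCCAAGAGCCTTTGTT
Rgs7 (Rgs7-205, chr1:175076017-175076097, minus strand): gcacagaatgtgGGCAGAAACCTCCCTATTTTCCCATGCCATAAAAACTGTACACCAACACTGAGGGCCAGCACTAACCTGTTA
The other coding ones, of Rgs17 (70 bases, 35 of them coding) and Rgs8 (129 bases, 26 of them coding), are not shown. The exons of Pde4dip (153 bases) and Pde8b (141 bases) are multiples of 3, and skipping keeps the reading frame. The Prkaa1 exon has 94 bases, follows residue 89 of 559 and shifts the frame when skipped. Prkaa1 encodes the AMPK alpha 1 subunit. The Rgs19 exon (106 bases) is wholly coding in Rgs19-206, where it follows the first residue. The start of Rgs19-206 (181691721) was listed in saline libraries 1 and 3 only, and transcripts from the stable starts have their first coding base inside the exon or after it. The Rgs7 exons of 78 and 81 bases hold 51 and 72 coding bases. They carry the end of the coding sequence in the transcripts shown, Rgs7-206 (470 residues) and Rgs7-205 (178 residues). Their use sets the tail of the annotated protein. Rgs7 is known to act on Gi and Go, which was not tested for the 178-residue form.

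Retained introns were less repeatable. There were 55 single retained introns in the members, with a median length of 582 bases (range 65 to 4674), and 39 of them were listed in 1 library. Only Adcy7 (chr8:88325513-88326096, 582 bases between the flanking exon bases) and Rgs11 (chr17:26207457-26207546, 88 bases) had a single intron retained in all 6 libraries. Pde7a, a cAMP phosphodiesterase, had a run of introns (chr3:19229768-19230957) that was. Retained introns of any kind numbered 88 and concentrated in a few genes, since Rgs11, Adcy6, Adcy7 and Pde7a held 53 of them (60.2%). Alternative exon ends in all 6 libraries were limited to a pair each in Gngt2 and Prkcsh.

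Between the groups, the number of member events was compared per library. In saline libraries 1, 2 and 3 there were 337, 325 and 352 events, and in morphine libraries 1, 2 and 3 there were 394, 343 and 341. The means were 338.0 ± 13.53 and 359.3 ± 30.04 (SD, n = 3 each), 6.312% higher in morphine, and the groups overlapped (two-sided exact permutation test, p = 0.4, adjusted p = 0.8 over 6 comparisons). The smallest p that 3 against 3 libraries allow is 0.1. Members listed numbered 87, 89 and 93 in saline and 92, 92 and 90 in morphine (exact permutation test, p = 0.6).

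Of the families, alternative exon ends were the only one without overlap. Each alternative form of an exon end counts as an event. Saline libraries listed 14, 14 and 16 and morphine libraries 23, 18 and 21, which is 14.67 ± 1.155 against 20.67 ± 2.517 (SD, n = 3 each) and 40.91% higher (exact permutation test, p = 0.1, adjusted p = 0.6). Over all genes the same count was 9.223% higher in morphine (exact permutation test, p = 0.2, n = 3 each). Per 10000 exon ends of all genes in the same library, the member values were 23.09, 25.84 and 28.59 in saline and 35.06, 28.14 and 36.87 in morphine, and the groups overlapped. Rgs11 held 4, 2 and 2 of these exon ends in saline and 4, 6 and 7 in morphine, and without it the members had 10, 12 and 14 in saline and 19, 12 and 14 in morphine. The morphine libraries also had the higher mean depth, and the part of depth in this difference was not tested.

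The other families overlapped. Skipped exons numbered 32, 35 and 31 in saline and 42, 33 and 35 in morphine (exact permutation test, p = 0.3), and transcript starts and ends 269, 262 and 285 in saline and 282, 275 and 269 in morphine (exact permutation test, p = 0.8). Retained introns numbered 22, 14 and 20 in saline and 47, 17 and 16 in morphine, a mean 42.86% higher (exact permutation test, p = 0.8) that rested on morphine library 1. Without that library the difference, morphine minus saline, was -11.61%. In morphine library 1, Pde9a, a cGMP phosphodiesterase chosen here after its values were seen, had 12 events against 4, 3 and 3 in saline and 3 in each other morphine library.

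**Figure D3:**
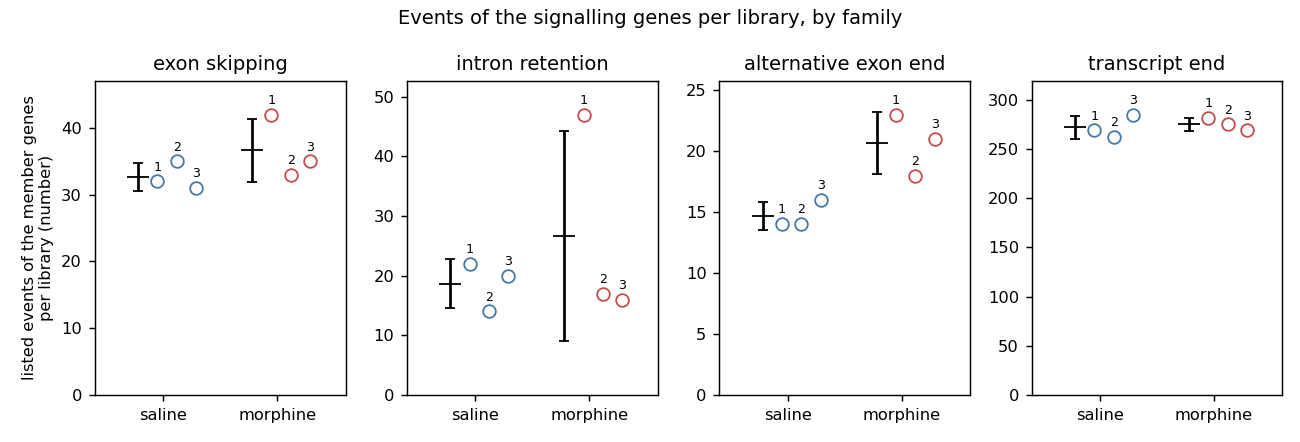
Member events per library (y axis, number, from 0) in the saline and morphine groups (x axis), in 4 panels by event family. Circles are libraries with their replicate number, and bars are the mean ± SD (n = 3). Exon ends lie at 14 to 16 in saline and 18 to 23 in morphine, and the high retained-intron value of 47 is morphine library 1.

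Few single events followed the group. Of the 685 member events, 3 (0.438%) were listed in all morphine and no saline libraries, where the share over all genes was 0.381%. In the other direction it was 6 (0.876%), where the share over all genes was 0.277%. When all coordinates and the pattern had to match, 2 and 4 were left, without the Adcy7 and Gng3 starts and the opposite-strand Gna13 start. The shares over all genes under that match are not given here. Member event lists overlapped about as much within groups as between them, with a mean Jaccard index (the share of the events found in either library that were found in both) of 0.579 over 6 pairs within groups and 0.567 over 9 pairs between them.

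Skipped exons gave 1 such event in each direction. In Gnao1, which encodes the alpha subunit of Go, the most abundant G alpha of brain, skipping of an annotated last coding exon was listed in all saline and no morphine libraries. The exon (chr8:93966868-93967083, plus strand, 216 bases, 185 of them coding) holds the end of the coding sequence in Gnao1-201. In that transcript a further exon, starting at 93968032, follows it. The exon is shown since it encodes the C-terminal end of the protein.
Gnao1 (Gnao1-201): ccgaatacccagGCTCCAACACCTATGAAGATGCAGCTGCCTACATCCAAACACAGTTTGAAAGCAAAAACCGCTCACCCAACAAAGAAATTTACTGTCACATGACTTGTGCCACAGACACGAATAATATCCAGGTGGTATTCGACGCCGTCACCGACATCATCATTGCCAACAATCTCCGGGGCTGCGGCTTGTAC
In morphine library 3, the same exon was listed under another class, as an alternative exon end with a shorter form (93966868-93966989). Gnao1 as a whole had 6, 4 and 5 events in saline and 6, 4 and 5 in morphine, so that its event number did not follow the group.

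In Rgs11, skipping of a wholly coding exon (chr17:26205707-26205775, plus strand, 69 bases, a multiple of 3, after residue 198 of 466) was listed in all morphine and no saline libraries. Rgs11 belongs to the R7 family, which pairs with the beta subunit Gnb5 and acts on Go.
Rgs11 (Rgs11-201): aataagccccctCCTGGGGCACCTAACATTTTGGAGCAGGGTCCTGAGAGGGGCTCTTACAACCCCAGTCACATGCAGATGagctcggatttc
Over all genes, 0.606% of skipping events were listed in all morphine and no saline libraries and 0.528% the reverse, against 1 of 74 member events (1.35%) each way.

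No retained intron (0 of 88) and no alternative exon end (0 of 57) of the members was group-specific. Over all genes, 0.502% of retained introns were listed in all morphine and no saline libraries and 0.194% the reverse, and of exon ends 0.44% and 0.327%. The remaining group-specific events were transcript starts, 2 in morphine (0.429% of 466 member starts and ends, against 0.287% over all genes) and 5 in saline (1.07%, against 0.252% over all genes). Gna13 encodes a G alpha subunit. Its annotated start (chromosome 11, first exon ending at 109363256) was listed in the 3 morphine libraries only, and in the 3 saline libraries a start at 109363106 on the opposite strand was listed in its place. The gene had 3 events in every library and both of its transcript ends in all 6. Gnb5 showed the same exchange without regard to group, since own-strand starts were listed in saline library 2 (75311520) and in saline library 3 and morphine library 3 (75314383), and an opposite-strand start (75314064 on chromosome 9) in the others; it was named after its values were seen.

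The start of Gngt2 (the gamma subunit of cone transducin) at 95843392 on chromosome 11, which is annotated, was listed in saline only, beside 2 starts listed in all 6 libraries. The Rgs12 start at 34949528, listed in saline only and not annotated, lay close to the stable start at 34949524. The Adcy7 start at 88324599 on chromosome 8, in saline only, and the Gng3 start at 8839584 on chromosome 19, in morphine only, were not annotated. Adcy7 encodes an adenylyl cyclase and Gng3 a gamma subunit of brain. Gng3 also had a start at 8839555 in saline libraries 2 and 3 and morphine libraries 2 and 3. The Pde4d start for 678 residues, described above, is the last of the 5.

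Event numbers without overlap between the groups were found in 4 members. In Rgs11, Rgs12 and Gngt2 these numbers include the group-specific event described above, without which the groups would meet. Higher in every morphine library were Rgs11 and Rgs7 (2 of 99, 2.02%, against 1.8% of all listed genes), and lower were Rgs12 and Gngt2 (2.02%, against 0.966% of all listed genes). Rgs7 had 4 events in each saline library and 8, 6 and 8 in morphine libraries 1, 2 and 3. The added events of morphine library 1 were 4 starts listed there only, 2 of them on the opposite strand, while morphine libraries 2 and 3 shared the skipping of an exon of 54 bases (chr1:175076824-175076877) and a block that holds it. Rgs12 had 7, 9 and 8 events in saline and 6, 6 and 5 in morphine, and Gngt2 had 6, 7 and 7 in saline and 5 in each morphine library.

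Rgs11 had the most events of all members, 52, of which 29 were listed in 1 library. It had 16, 15 and 16 events in saline and 24, 17 and 23 in morphine. The events listed in a single library numbered 1, 1 and 3 in the saline libraries and 10, 5 and 9 in the morphine libraries. Those listed in 2 or more libraries numbered 15, 14 and 13 in saline and 14, 12 and 14 in morphine, and these overlapped. Of the events in 2 or more libraries, those listed in morphine libraries alone were the skipped exon of 69 bases, in all 3, and a start at 26204545, in morphine libraries 1 and 3.

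**Figure D4:**
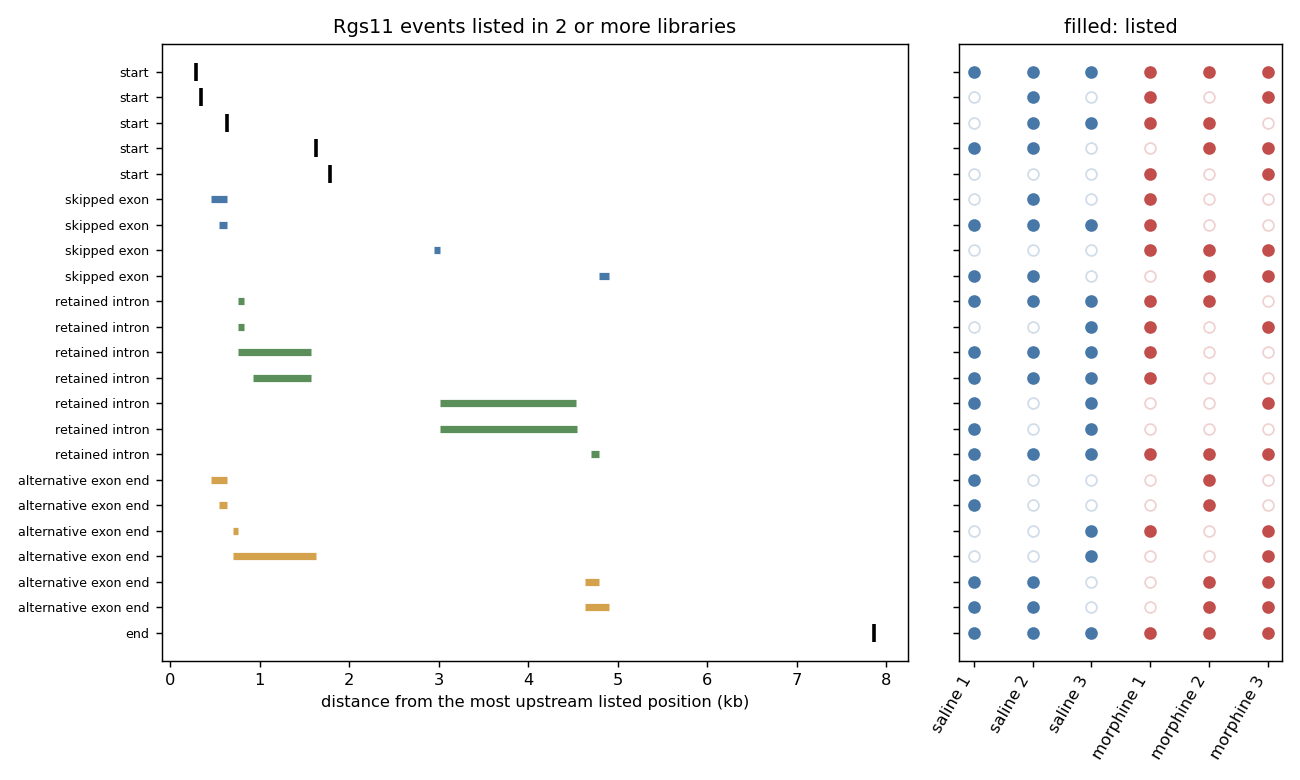
The 23 Rgs11 events listed in 2 or more libraries, by distance in kb from the most upstream listed position (x axis, left) and by library (right, filled when listed, saline blue, morphine red). Starts and ends are black, skipped exons blue, retained introns green and alternative exon ends yellow. The skipped exon near 3 kb is filled in the 3 morphine libraries only.

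In the 4 members with the next most events, the numbers of the groups overlapped or met. Adcy6, a cyclase that Gi inhibits (named after its values were seen), had 35 events, 11, 8 and 12 in saline and 19, 14 and 4 in morphine. Its retained introns numbered 4, 3 and 2 in saline and 9, 7 and 0 in morphine. Adcy7 had 26 events, 8, 8 and 11 in saline and 7, 4 and 10 in morphine. Pde4dip had 23, with 7, 11 and 5 in saline and 17, 11 and 9 in morphine. Pde7a had 22, with 5, 3 and 7 in saline and 14, 7 and 7 in morphine. Rgs11 and these 4 genes together held 158 events (23.1% of the member events). At the other end, 29 members had exactly the same number of events in all 6 libraries, and 17 of them had 2 events in each.

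**Figure D5:**
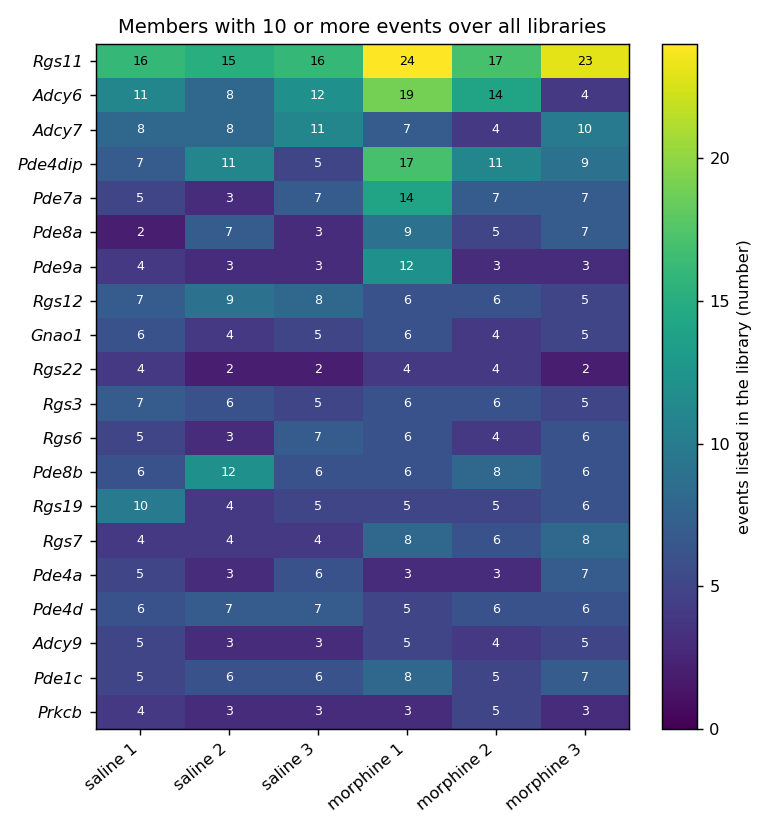
Events listed per library (colour and number) in the 20 members with 10 or more events over all libraries, in order of their total. Rgs11 stands at 15 to 16 in saline and 17 to 24 in morphine, and Adcy6 runs from 4 in morphine library 3 to 19 in morphine library 1.

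The listed genes included some known from photoreceptors, as background a cell type that the NAc lacks. Of 11 photoreceptor members, 8 were listed in at least 1 library and 1, Gngt2, in all 6, with 27 events in all. The listed events of Gnat2, Gnb3, Pde6b and Pde6c lay at no annotated position, and so do not show their annotated transcripts. Pde6a and Pde6h had an annotated start and Pde6g an annotated end. No event of Gnat1, Gngt1 and Rgs9bp was listed, nor of the taste-cell genes Gnat3 and Rgs21. Pde2a, a cGMP-stimulated phosphodiesterase, was not listed under its own identifier. Its locus on chromosome 7 was listed under that of the overlapping gene Gm45837 with 6 events, among them the annotated Pde2a end (101511456) in all 6 libraries and the annotated Pde2a start (101421995) in 5. Absence from a list thus does not show absence of the transcript.

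Other genes of the pathway, which the rule does not take, were listed for comparison. Of 36 genes (A-kinase anchoring proteins, PKA inhibitors, phospholipases C, receptor kinases, arrestins, CREB genes, potassium channels and the 6 genes left out), all 36 were listed in all 6 libraries, with 282 events. None of these events was listed in all morphine and no saline libraries, where the share over all genes was 0.381%. In the other direction it was 2 of 282, in Akap5 and Pkig, where the share over all genes was 0.277%. Plcb3, 1 of the 36, had fewer events in every morphine library (6, 5 and 4 in saline, 3, 2 and 3 in morphine). Over all listed genes that share was 0.966%. No gene had more in every morphine library, where the share over all listed genes was 1.8%.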

How the data were processed

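Total RNA of 6 NAc libraries was sequenced by the authors, with a directional kit. Per the study's methods, reads were mapped with HISAT2 2.0.4 and assembled with StringTie 1.3.1. The build and annotation release are not given in the sources used here. In each library, 75.4% to 79.4% of starts and 87.3% to 89.6% of single skipped exons lay at GENCODE M21 (GRCm38) positions, which were used for names. The deposited event lists have a column named FPKM with 0 and negative whole numbers, a score without a stated meaning that was not used as a level. Read counts and FPKM values, deposited by the authors for selected lncRNAs, gave the relative depth (91 values with at least 10 counts). The p-values (false discovery rate) and log2 fold changes in that table are the authors' own comparison and were not used.

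The included and the skipped entry of an exon or intron were taken as 1 event, each form of an alternative exon end as an event of its own, named by its class, gene, strand and exon or intron ends. The 20 types formed 12 classes and 4 families. Groups came from the treatment labels. Two-sided exact permutation tests (scipy 1.17.1, Python 3.11.15, with pandas 2.3.3 and numpy 2.4.6) were adjusted by Benjamini-Hochberg over 6 comparisons, and plots were drawn with matplotlib 3.10.9. Genes were named by rule: the 3 members of each family with the most events in all 6 libraries, those with a group-specific event, with a stably skipped annotated exon or a stably retained intron, and those listed nowhere. The others named (Adcy6, Gnb5, Pde4a, Pde9a, Prkaca and Plcb3 among them) were chosen after their values were seen. The members and lists were chosen with earlier results of these data known. The lists give no read number per event, so no interval can be given, and depth and assembly limit what is listed.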

Additional observations from a re-analysis of the deposited data

How the results depend on the processing

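The results were recomputed with all coordinates and the pattern as identity, without events on the other strand, without Gnb1l, Pde4dip and Prkcsh, in genes listed in all 6 libraries, per 10000 events of the family, and, chosen after seeing the data, with the events of Gm45837 counted as Pde2a. Of 115 such values and those with a library left out, 100 kept their direction or, for counts, stayed within 1.5 times. A further 10 moved by more, and 5 reversed or were 0.0. With all coordinates and the pattern as identity, events only in morphine fell from 3 to 2 and only in saline from 6 to 4. The matching shares over all genes are not given here. The transcript-end difference (1.225%, morphine minus saline) was 0.0% in genes listed in all 6 libraries, -1.297% per 10000 events, -0.6017% without saline library 2 and 0.0% without morphine library 1. The intron-retention difference was -11.61% without morphine library 1. The causes were not tested.

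With each library left out in turn, differences ranged from 1.183% to 9.024% for all member events, from 4.082% to 17.86% for skipped exons, from -11.61% to 71.43% for retained introns, from 32.95% to 50.0% for exon ends, from -0.6017% to 3.704% for transcript ends and from 0.3663% to 3.788% for listed members. Events only in morphine numbered 4 to 9 (3 with all libraries), reaching 9 without morphine library 1 or 2. Events only in saline numbered 7 to 12 (6 with all libraries), reaching 12 without saline library 2 and 10 without morphine library 1. Members with more events in every morphine library numbered 3 to 4 and with fewer 2 to 3 (2 each with all libraries). With 1 library fewer these calls need fewer libraries to pass, so their number can only rise or stay. The shares over all genes with a library left out are not given here, so these counts cannot be set against them.

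No paired analysis was possible because the labels give no replicate number, and the numbers used here only name samples. The lists hold no depth per event, which limits what absence from a list shows.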

Other observations

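Transcripts on the strand opposite to their gene were listed for 16 members, with 29 events (4.23% of the member events, against 3.39% of all events). Of these, 24 were listed in 1 library and 0 in all 6. They seldom stood beside the gene's own start. In 18 of 543 pairs of a member and a library an opposite-strand start was listed, and in 17 of the 18 (94.4%) no start on the gene's own strand was listed. Over all genes it was 1824 of 1972 pairs (92.5%). The members were Adcy10, Adcy2, Gna13, Gnao1, Gnaq, Gnb5, Prkaa1, Prkcb, Prkch and Rgs1, and Rgs7 was the exception. In Gnaq, which encodes the alpha subunit of Gq, both the own-strand start and end were listed in 5 libraries, and an opposite-strand start and end in morphine library 3. The Gna13 exchange, which gives 2 of the 9 group-specific member events, has this form, and its cause was not tested.

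Prkcb, the PKC beta gene, had 2 annotated ends on chromosome 7. The end at 122633745 was listed in all 6 libraries and that at 122627656 in saline library 3 and morphine libraries 2 and 3. Adcy8, a cyclase that calcium and calmodulin stimulate, had 2 skipped coding exons of 90 and 198 bases (chr15:64744841-64744930 and chr15:64767807-64768004), both multiples of 3, in every library except morphine library 1.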
